A study of Capra hircus with 6 samples.

Results

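The EGF family ligands and ERBB receptors were followed in secondary hair follicle dermal papilla cells (SHF-DPCs) of the cashmere goat with and without all-trans retinoic acid (ATRA). The members were chosen by gene symbol: 3 receptors (EGFR, ERBB2 and ERBB3) and 6 ligands (TGFA, HBEGF, EREG, AREG, BTC and NRG1), 9 of the 15944 genes in all. Counts were at hand for 8 of them. NRG1 was not analysed here. A filter on low counts, which kept 12588 genes, was passed by 5 members (EGFR, ERBB2, TGFA, HBEGF and EREG), while ERBB3, AREG and BTC were too low to be tested.

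RNA-seq measured poly(A) transcripts of SHF-DPCs in primary culture from wild type Capra hircus skin. The control group (3 libraries) received an equal volume of culture medium without ATRA, and the ATRA-treated group (3 libraries) received ATRA at 100 µM for 24 h. Cells of both groups came from 3 animals, goats 3 years old whose skin was sampled during anagen, and were grown in medium with serum at passages 4 to 7. All libraries carry the same batch label, 1, and the labels do not say which control and treated libraries share an animal.

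EGF family ligands are made as membrane-anchored precursors, and proteases of the ADAM family release them. They bind ERBB receptors, which pair with each other and signal through the Ras-ERK and PI3K-AKT pathways. TGFA, HBEGF, EREG, AREG and BTC bind EGFR, whereas neuregulins such as NRG1 bind ERBB3 and ERBB4. ERBB2 has no known ligand of its own and acts as a partner of the other receptors. In skin, EGFR signalling is known for its part in hair follicle development and the hair cycle, and mice that lack TGFA have wavy hair. ATRA, made in cells from vitamin A, acts by binding nuclear retinoic acid receptors.

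The control libraries held 36887160 to 38012771 counts each and the ATRA libraries 35532339 to 36870939. Counts are given as deposited. Normalized CPM is the count per fixed number of reads (CPM) after TMM scaling, a method that corrects for a few abundant genes taking a large share of a library, and log₂FC is the log₂ of the ratio of the ATRA-treated group to the control group. The TMM factors separated the groups, at 0.842 to 0.851 in the control group and 1.16 to 1.20 in the ATRA-treated group. The choice of scaling therefore moved every log₂FC. With library size only, the median log₂FC of all tested genes was 0.52, against 0.04 with TMM.

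The cells were checked against marker lists. Of 16 dermal papilla and fibroblast markers, 12 were tested and all 12 fell with ATRA, where 38.7% of all tested genes were lower. The summed level of the list was 93810 to 95510 normalized CPM in the control group and 4842 to 5165 in the ATRA-treated group. Most of that sum was COL1A1, COL1A2 and VIM. The falls reached from PDGFRB, at a log₂FC of -0.44, to ACTA2, which encodes α-smooth muscle actin. ACTA2 was at 6582 normalized CPM without ATRA and 8.37 with it. The dermal papilla markers PROM1 (which encodes CD133), ALPL and CORIN had at most 1 count in every library of both groups, and SOX2, also untested, had 5, 0 and 2 counts without ATRA and 10, 16 and 9 with it. Keratinocytes are a known source of EGF family ligands. Of 12 keratinocyte markers, 10 had counts at hand and 6 of them stayed at 3 counts or fewer in every library, and the summed level of the list was 3.29 to 5.01 normalized CPM in the control group and 5.40 to 5.97 in the ATRA-treated group, most of it KRT10. The defining basal keratinocyte markers were near 0: KRT14 had 20, 14 and 10 counts in the control libraries and 3, 0 and 0 in the ATRA libraries, and TP63 had at most 1. Summed levels without and with ATRA were 0.903 to 1.24 and 6.19 to 9.16 normalized CPM for the 5 endothelial markers with counts at hand, and most of the rise was that of PECAM1, while CDH5 had at most 1 count in every library. They were 9.58 to 13.2 and 41.6 to 44.4 for leukocyte markers (6 genes), with CD14 and CD68 higher and CD3E and AIF1 near 0. They were 16.1 to 17.6 and 32.2 to 39.0 for melanocyte markers (3 genes), most of it MITF, which rose, while PMEL fell from 4.01 to 2.15 and TYRP1 was near 0. Of the Schwann cell markers, S100B fell from 85.4 to 38.7 normalized CPM and MBP from 3.56 to 2.25, while FOXD3, too low to be tested, had 0 counts without ATRA and 3, 5 and 13 with it. The part of these shifts in the results below was not tested. In bulk RNA, fewer cells of a type and less RNA per cell cannot be told apart.

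Among the members, the ligand HBEGF and the receptor EGFR rose with ATRA, and the ligand TGFA and the receptor ERBB2 fell. EREG did not pass the test. HBEGF rose 17.3-fold and TGFA fell by a factor of 19.7, so the largest changes among the 5 tested members lay in a pair of EGFR ligands and had opposite signs. By edgeR's quasi-likelihood test with Benjamini-Hochberg adjustment (adjusted p under 0.05), 2 of the 5 tested members were higher (40.0%) and 2 were lower (40.0%). Over all 12588 tested genes, 40.9% were higher and 38.7% were lower, so the number of members called was near that of any genes. With library size only, 3 members were higher and 1 was lower, because EREG then passed and ERBB2 no longer did. The shares of all genes higher and lower with that scaling are not given here. Its median log₂FC over all tested genes was 0.52, and 1806 genes did not pass, against 2560 with TMM. EGFR, HBEGF and TGFA also had an absolute log₂FC above 1 with an unadjusted p under 0.05, as did 31.0% of all tested genes. The groups did not overlap for EGFR, ERBB2, HBEGF and TGFA, and they did not overlap for 80.1% of all tested genes.

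**Figure D1:**
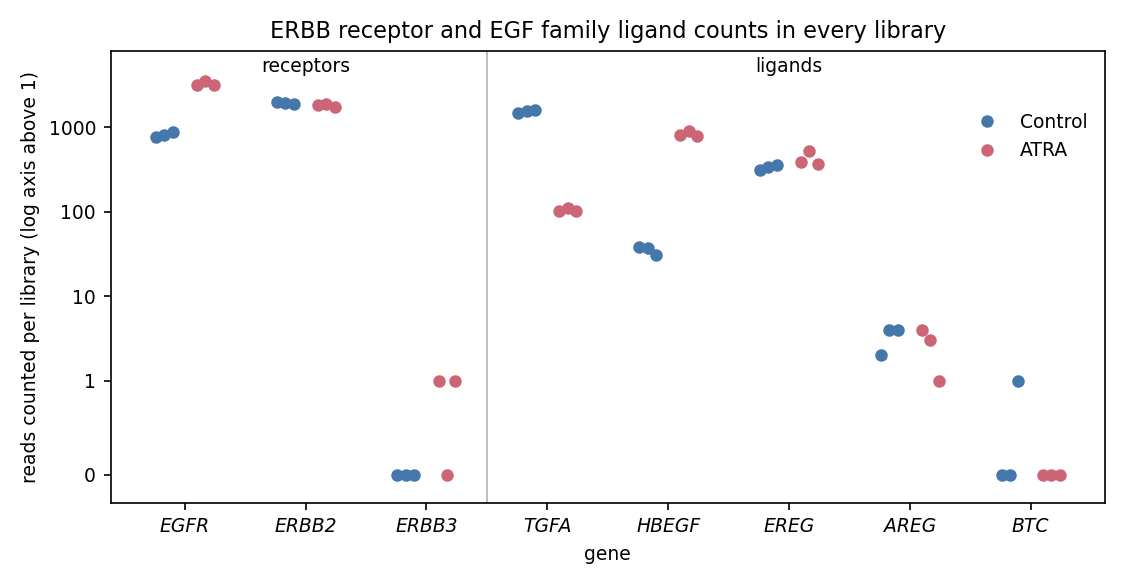
Reads counted in each library for the 8 members with counts at hand, on a log axis that is linear below 1, with receptors at left and ligands at right. Blue points are the 3 control libraries and red points the 3 ATRA libraries, in replicate order. EGFR and HBEGF lay higher with ATRA and TGFA lower, whereas ERBB2 counts, which are not scaled here, were 1884 to 1956 in the control group and 1741 to 1870 with ATRA.

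EGFR is the receptor tyrosine kinase that binds EGF, TGFA, HBEGF and the other ligands of that branch. Its counts were 771, 798 and 865 in the control libraries and 3175, 3545 and 3107 in the ATRA libraries. Every ATRA library had more than 3 times the EGFR counts of every control library, and within each group the libraries lay close together. Normalized CPM of EGFR rose from 25.5 ± 1.26 (SD, n = 3) to 76.3 ± 3.62 (SD, n = 3). The log₂FC of EGFR was 1.58 (SE 0.0697, 95% interval 1.44 to 1.73, adjusted p = 2.07e-13 by edgeR), a 2.99-fold rise. In the order of log₂FC from the top, EGFR was gene 932 of 12588. When single libraries were left out, the log₂FC of EGFR stayed between 1.53 and 1.62.

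ERBB2 is the preferred partner of the other ERBB receptors. Its counts were 1956, 1912 and 1884 in the control libraries and 1809, 1870 and 1741 in the ATRA libraries. The ATRA libraries were lower, but by a small margin in raw counts. After TMM scaling the margin was wider, and normalized CPM of ERBB2 passed from 60.3 ± 2.40 (SD, n = 3) to 42.1 ± 0.274 (SD, n = 3). The log₂FC of ERBB2 was -0.52 (SE 0.0639, 95% interval -0.65 to -0.38, adjusted p = 6.51e-07 by edgeR), 1.43-fold lower. This call rested on the scaling: with library size only, the log₂FC of ERBB2 was -0.04 and the adjusted p was 0.573.

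ERBB3, a neuregulin receptor with a weak kinase, was at 0 counts in the 3 control libraries, and the ATRA libraries held 1, 0 and 1. A count of 0 allows up to 3 counts, which is 0.0927 to 0.0967 normalized CPM in a control library. ERBB4, the fourth receptor, had 0, 1 and 0 counts in the control libraries and 1, 0 and 2 in the ATRA libraries. A difference in ERBB3 or ERBB4 was not detectable at this depth. Receptor transcripts counted in these cells were therefore nearly all EGFR and ERBB2.

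Since the ERBB2 call moved with the scaling, EGFR and ERBB2 were also set against each other within each library, where no scaling enters. In the control libraries ERBB2 had 2.54, 2.40 and 2.18 times as many counts as EGFR. In the ATRA libraries EGFR had 1.76, 1.90 and 1.79 times as many counts as ERBB2. The order of the counts thus turned over in every library, although the sizes of these ratios also depend on the lengths of the transcripts and are not ratios of transcript number. The log₂ ratio of EGFR to ERBB2 counts averaged -1.24 ± 0.111 (SD, n = 3) without ATRA and 0.86 ± 0.0585 (SD, n = 3) with it. The difference was 2.10 (SE 0.0725), a 4.28-fold change of the ratio. A two-sided exact permutation test gave p = 0.1, and 3 libraries against 3 cannot give a smaller one.

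TGFA, transforming growth factor alpha, is an EGFR ligand. Its counts were 1450, 1561 and 1580 in the control libraries and 103, 109 and 101 in the ATRA libraries. The groups were far apart and the spread within each was small. Normalized CPM of TGFA fell from 48.1 ± 1.25 (SD, n = 3) to 2.43 ± 0.0449 (SD, n = 3). The log₂FC of TGFA was -4.30 (SE 0.0918, 95% interval -4.50 to -4.11, adjusted p = 4.25e-18 by edgeR), and 19.7-fold more TGFA was counted in the control group after scaling. In the order of log₂FC from the bottom, TGFA was gene 304 of 12588, and the values without each library in turn lay between -4.33 and -4.29.

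HBEGF, heparin-binding EGF-like growth factor, binds EGFR and ERBB4. Its counts were 38, 37 and 31 in the control libraries and 817, 893 and 776 in the ATRA libraries. The control libraries were low but well above the floor of 3 counts, and every ATRA library lay far above them. Normalized CPM of HBEGF rose from 1.11 ± 0.133 (SD, n = 3) to 19.3 ± 0.823 (SD, n = 3). The log₂FC of HBEGF was 4.12 (SE 0.132, 95% interval 3.84 to 4.39, adjusted p = 1.80e-15 by edgeR). In the order of log₂FC from the top, HBEGF was gene 174 of 12588, and the values without each library in turn lay between 4.02 and 4.18.

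Within each control library TGFA had 38.2, 42.2 and 51.0 times the counts of HBEGF. Within each ATRA library HBEGF had 7.93, 8.19 and 7.68 times the counts of TGFA. The log₂ ratio of HBEGF to TGFA counts averaged -5.44 ± 0.212 (SD, n = 3) without ATRA and 2.99 ± 0.0463 (SD, n = 3) with it. The difference was 8.43 (SE 0.13), and no test was run on it. This ratio was not planned, and its genes had the largest rise and the largest fall among the 5 tested members. The difference therefore restates the log₂FC values of HBEGF and TGFA and is not a further result. As for the receptors, the change of the ratio is free of scaling, while its size within a group also holds the transcript lengths.

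**Figure D2:**
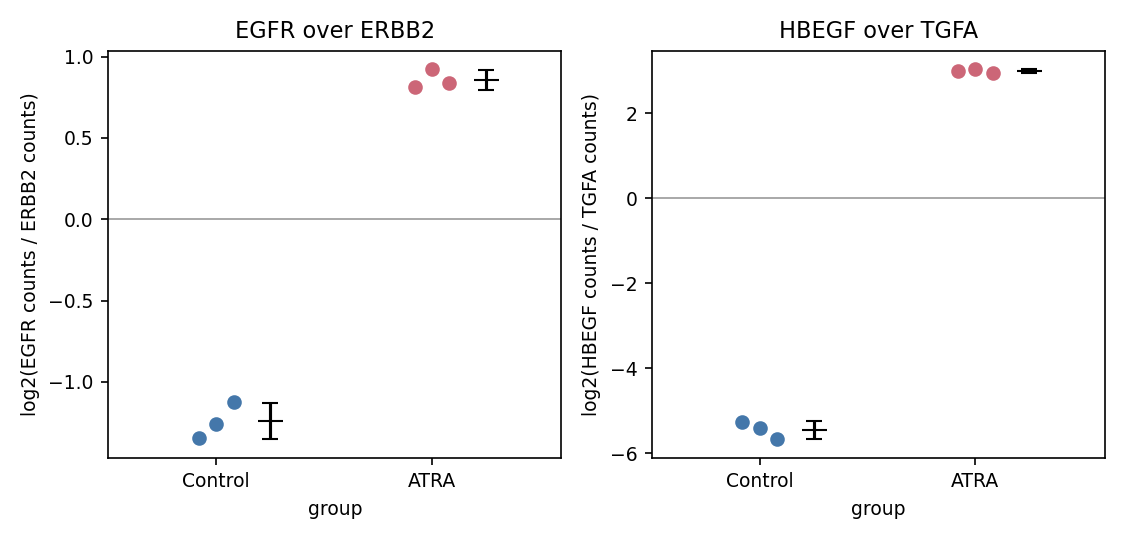
The log2 ratio of EGFR to ERBB2 counts (left) and of HBEGF to TGFA counts (right) within each library, with the control libraries in blue, the ATRA libraries in red, and black bars for mean ± SD (n = 3). The line at 0 marks equal counts. Both ratios lay below 0 in all 3 control libraries and above 0 in all 3 ATRA libraries. The ratio at right was not planned and sets the largest rise among the tested members against the largest fall.

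EREG, epiregulin, binds EGFR and ERBB4. Its counts were 307, 341 and 360 in the control libraries and 391, 516 and 367 in the ATRA libraries. ATRA replicate 2 was the highest, and after scaling the groups overlapped, with 9.89, 10.5 and 11.2 normalized CPM in the control libraries and 9.05, 11.7 and 8.87 in the ATRA libraries. The log₂FC of EREG was -0.09 (SE 0.118, 95% interval -0.34 to 0.15, adjusted p = 0.467 by edgeR). Without ATRA replicate 2 the log₂FC was -0.24 (adjusted p = 0.0573). With library size only its sign turned, to 0.38 (adjusted p = 0.00857).

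AREG, amphiregulin, had 2, 4 and 4 counts in the control libraries and 4, 3 and 1 in the ATRA libraries. That makes 10 against 8 counts, and relative to the total counts, without TMM, the ratio of the ATRA-treated to the control group was 0.827, with an exact 95% interval of 0.284 to 2.33 that covers counting error only. With TMM, AREG was at 0.104 ± 0.0344 and 0.0616 ± 0.0346 normalized CPM (SD, n = 3), and the groups overlapped. BTC, betacellulin, had 1 count in all, in control replicate 3. A count of 0 in an ATRA library allows up to 0.0680 to 0.0725 normalized CPM. No difference in AREG or BTC was detectable at this depth, and when all genes were tested without the filter the adjusted p was 0.452 for AREG, 0.357 for BTC and 0.296 for ERBB3.

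Of the other ligands listed, EGF and NRG2 had 1 count each in all. EPGN, epigen, was at 0 counts in the 3 control libraries, and the ATRA libraries held 2, 4 and 7. The EPGN groups did not overlap, but 13 counts in all were too few to pass the filter, and no test was run. In the RefSeq gene table of the goat assembly ARS1.2, EPGN, EREG, AREG and BTC are consecutive protein-coding genes on chromosome 6. EREG alone of these neighbours was counted at more than 10 reads in any library. NRG3 and NRG4 were not analysed here.

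Because the scalings disagreed by a constant shift, each member was also set against the median of all tested genes under TMM, RLE (median of ratios), upper quartile and library size scaling. Relative to that median, the log₂FC of HBEGF was 4.08 and that of TGFA was -4.34 under each of the 4 scalings. The value for EGFR was 1.54 with TMM, and 1.55 with library size only. ERBB2 lay 0.55 below the median and EREG 0.13 below it under each scaling. Each scaling shifts all genes by nearly the same amount, so these values and the order HBEGF, EGFR, EREG, ERBB2 and TGFA could hardly differ. Their agreement is not a check of the changes.

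**Figure D3:**
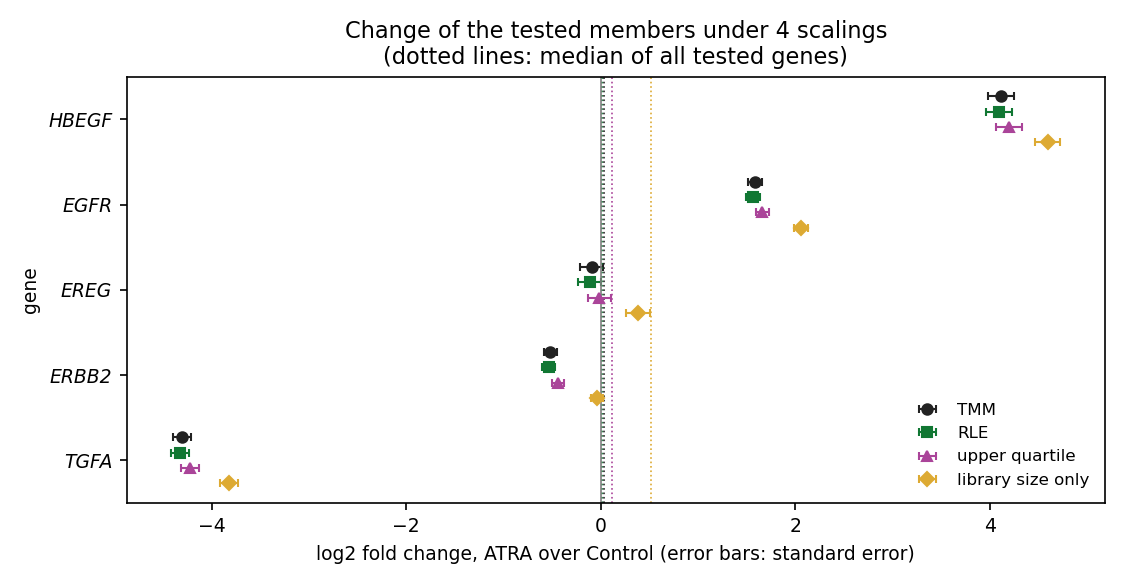
The log2 fold change of the 5 tested members, ATRA over Control, under 4 scalings, with standard errors. Dotted vertical lines in the same colours mark the median of all tested genes under each scaling. Library size only (yellow) moved every member to the right by as much as it moved the median, from 0.04 to 0.52, which took ERBB2 to -0.04 and EREG across 0 to 0.38.

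The genes most like each member over the 6 libraries were found by the root mean square (RMS) difference in log₂(normalized CPM + 0.1) after each gene was centred on its own mean. EGFR was nearest to SPRY1, an inhibitor of receptor tyrosine kinase signalling (RMS difference 0.0372), and to the zinc finger gene ZNF740 (0.0384). TGFA was nearest to FBLN5, which encodes an elastic fibre protein (0.0499), and to ANKRD1 (0.0549). The changes of both lay close to that of TGFA, at log₂FC -4.17 and -4.18, which follows from the way they were chosen. Likeness over these 6 libraries is mostly likeness in the size of the change.

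For HBEGF the nearest genes were CXCL8, which encodes the chemokine interleukin-8 (0.102), and RARB, the retinoic acid receptor beta gene, a known target of retinoic acid (0.127). HBEGF had no neighbour as close as those of EGFR or TGFA. RARB rose from 0.0525 to 2.18 normalized CPM, a log₂FC of 5.29 against 4.12 for HBEGF, and its nearness rests on the 0.1 CPM added to a control level below that amount. ERBB2 was nearest to NCS1 (0.00902) and PRMT5 (0.0209), and EREG to ZMYM1 (0.0333) and PHTF2 (0.0339).

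Transcripts of the proteins that release or hold back membrane-bound ligands changed in different directions. RHBDF2, which encodes iRhom2, the partner that carries the protease ADAM17 to the cell surface, had 227, 212 and 241 counts in the control libraries and 3375, 3205 and 3231 in the ATRA libraries. Its normalized CPM rose 10.7-fold, a log₂FC of 3.42 (SE 0.0820). RHBDF1, which encodes the related iRhom1, fell from 67.3 to 31.1 normalized CPM, with a log₂FC of -1.11 (SE 0.0702), and -0.63 with library size only. The iRhom genes thus moved in opposite directions.

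TIMP3, an inhibitor of ADAM17, had 63593, 65328 and 66283 counts in the control libraries and 13912, 15117 and 14339 in the ATRA libraries, and its log₂FC was -2.60 (SE 0.0599). ADAM17 itself, the main protease that sheds TGFA and HBEGF, rose from 144.8 ± 5.03 to 234 ± 16.9 normalized CPM (SD, n = 3), a log₂FC of 0.69. In all, 7 of the 8 listed genes were tested, 4 were higher (RHBDF2, CD9, ADAM17 and ADAM10) and 3 were lower (TIMP3, RHBDF1 and FRMD8), with a median log₂FC of 0.30 against 0.04 over all tested genes. The genes of this list with an absolute log₂FC under 1 were named after their values were seen.

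Inhibitors and down-regulators of ERBB receptors were higher in 7 of 12 tested genes and lower in 2, with a median log₂FC of 0.36. ERRFI1, which encodes MIG6, a feedback inhibitor of the EGFR kinase, had 2262, 2317 and 2431 counts in the control libraries and 18583, 19303 and 18111 in the ATRA libraries, and its log₂FC was 2.57 (SE 0.0564). The receptor phosphatase gene PTPRJ (log₂FC 1.47) and RNF41, which encodes a ubiquitin ligase of ERBB3 (log₂FC 1.20), were also higher. In the other direction, LRIG3, a leucine-rich repeat gene of the family of the EGFR antagonist LRIG1, had 4254, 4490 and 4493 counts in the control libraries and 735, 815 and 726 in the ATRA libraries, with a log₂FC of -2.97 (SE 0.0648). The second gene that fell, SOCS5, was named after its value was seen, and with library size only 1 gene of the list was lower.

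Genes that are known to respond to EGFR and ERK activity were higher in 10 of 17 tested genes and lower in 3, with a median log₂FC of 0.48. DUSP4, an ERK phosphatase, had 83, 119 and 88 counts in the control libraries and 3543, 3961 and 3809 in the ATRA libraries, and its log₂FC was 4.86 (SE 0.105). SPRY4, an inhibitor of the Ras-ERK pathway, had 51, 55 and 82 counts in the control libraries and 1703, 1904 and 1551 in the ATRA libraries, with a log₂FC of 4.34 (SE 0.129). No control library approached an ATRA library in either gene. The immediate early genes IER3 (log₂FC 2.32) and JUNB (log₂FC 2.28) rose as well. CCND1, which encodes cyclin D1 of the G1 phase, fell from 262 to 73.9 normalized CPM (log₂FC -1.83), and DUSP6 and FOSL1, named after their values were seen, were the others that fell. Most of these genes also respond to signals other than EGFR.

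Adaptors and Ras pathway kinases split, with 7 of 18 tested genes higher and 8 lower, and a median log₂FC of -0.15. With library size only, 11 were higher and 5 lower, while the median log₂FC of all tested genes rose to 0.52. GAB2, a docking protein for PI3K, rose from 24.1 to 58.6 normalized CPM (log₂FC 1.28). SHC1, the adaptor that links EGFR to Ras, passed from 315.8 to 152.8 normalized CPM (log₂FC -1.05, and -0.57 with library size only).

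Of 11 tested PI3K and AKT genes, 3 were higher and 5 were lower, with a median log₂FC of -0.01. With library size only, 8 were higher and 2 lower, again with a median log₂FC of 0.52 over all tested genes. The PI3K catalytic subunit gene PIK3CB rose from 2.02 to 12.6 normalized CPM (log₂FC 2.63), and the regulatory subunit genes PIK3R1 and PIK3R3 had log₂FC values of 1.20 and -1.41. The value of PIK3R3 was -0.93 with library size only. Against the background of 40.9% higher and 38.7% lower, the lists of ligand release, receptor inhibition and ERK response had 57.1%, 58.3% and 58.8% of tested genes higher and 42.9%, 16.7% and 17.6% lower. The adaptor and PI3K lists had 38.9% and 27.3% higher and 44.4% and 45.5% lower. With library size only, the lists of ligand release, receptor inhibition and ERK response had 4, 10 and 14 genes higher and 2, 1 and 2 lower. The median log₂FC of all tested genes was then 0.52, and the shares of all genes with that scaling are not given here. The shares by list are descriptions, and the lists share no gene with the members.

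**Figure D4:**
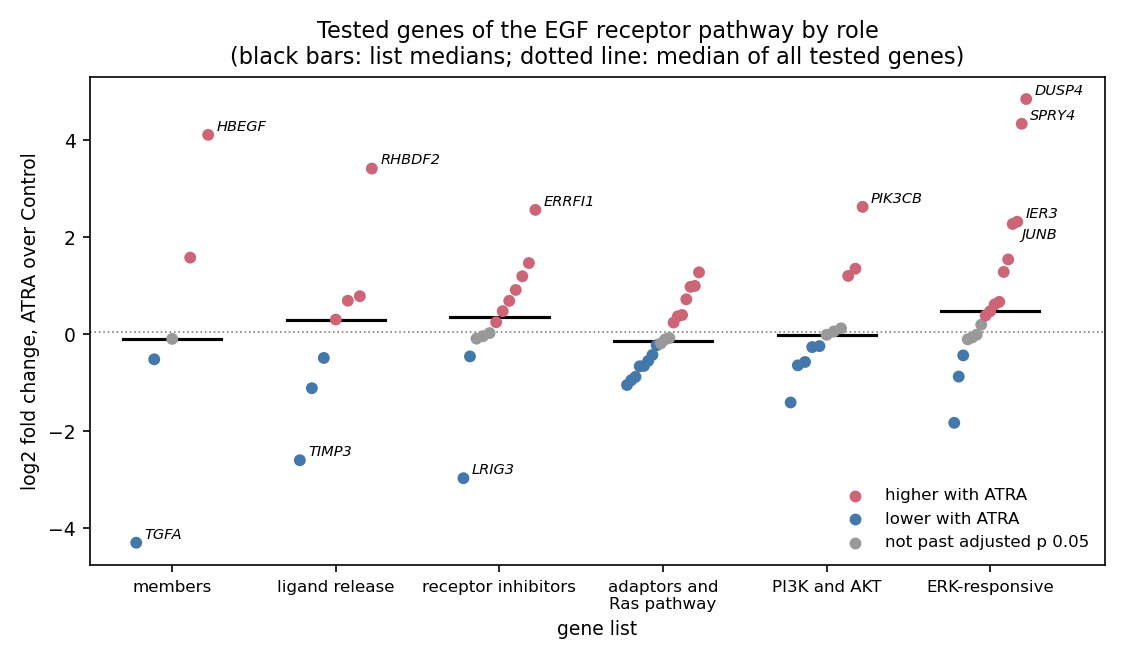
The log2 fold change of each tested gene, ATRA over Control with TMM scaling, by list, in rising order within a list. Red genes were higher and blue genes lower at an adjusted p under 0.05 (edgeR), black bars are list medians, and the dotted line is the median of all tested genes, 0.04. The members spread from TGFA at -4.30 to HBEGF at 4.12, and with library size only all lists move up, which ends the call of ERBB2 and turns EREG to a positive value that passes the test.

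The deposited annotation places 81 genes in the KEGG ErbB signaling pathway, and 73 remained when the members were left out. Of 66 tested, 23 were higher and 28 lower, 34.8% and 42.4% against the background of 40.9% and 38.7%, with a median log₂FC of -0.11. With library size only, 43 were higher and 14 lower, while the median log₂FC of all tested genes rose to 0.52. Relative to the median of all genes, the median of this list was -0.14 under both scalings, as a shift common to all genes leaves it. The changes within it reached from SHC3, an SHC adaptor, at a log₂FC of -3.96 to CAMK2A, a calcium/calmodulin-dependent kinase gene, at 2.75, genes singled out after their values were seen. The value of CAMK2A rests on low counts, 5, 0 and 3 in the control libraries and 35, 16 and 24 in the ATRA libraries (SE 0.603).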

How the data were processed

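Poly(A) RNA-seq libraries of SHF-DPCs (3 control, 3 ATRA) were analysed from the authors' deposited table of whole-number read counts per gene, which were not normalized. Before that, the methods say, fastp and TrimGalore were used to clean the reads. The submitters' processing notes name HISAT2, featureCounts and DESeq2. Their versions and the genome build are not given in the sources used here, and neither is the use of strand. All 15944 gene names matched a RefSeq gene table (assembly ARS1.2), used for names and neighbours only. Groups came from the treatment labels.

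The members and the gene lists were chosen with earlier results of these data known. Genes were kept by edgeR's filterByExpr (minimum count 10), scaled by TMM, and tested by edgeR's quasi-likelihood test over all 6 libraries with no covariate, two-sided, with Benjamini-Hochberg adjustment over 12588 genes. R's t.test function, named in the methods, does not suit counts and was run as an alternative. The log₂FC uses edgeR's default prior count, its SE is its size divided by the square root of the F statistic, and its 95% interval uses the t quantile at the test's degrees of freedom. List genes were named when the adjusted p was under 0.05, the absolute log₂FC above 1 and the mean normalized CPM at least 1 in a group, up to 4 per list and direction. For each tested member the 2 nearest genes were named, on log₂(normalized CPM + 0.1). Genes named outside this rule are marked as such. A marker gene is not reported here.

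Alternatives were other scalings, filters and prior counts, DESeq2, a replicate block, and leaving out single libraries. On simulated data edgeR (12458 genes) recovered 96 of 100 genes changed 2-fold and 99 of 100 changed 4-fold, with 16 false calls, and DESeq2 (12588 genes) recovered 94 and 99, with 9 false calls. The simulation changed few genes, as many up as down, with a common dispersion. In the real data most genes were called and the TMM factors separated the groups. The simulation therefore does not give the error of the calls made here. No pair of replicates agreed within sampling noise (chi-square per degree of freedom 5.01 to 18.4). The highest values, 18.4 and 17.3, were those of the pairs with ATRA replicate 2. ATRA replicates 1 and 3 gave 5.01, and the control pairs 6.13 to 8.94. Floors and count intervals cover counting error only, and p-values measure the spread between these cultures. Versions were R 4.3.3, edgeR 4.0.16, DESeq2 1.42.0, limma 3.58.1, Python 3.11.15, scipy 1.17.1 and matplotlib 3.10.9.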

Additional observations from a re-analysis of the deposited data

How the results depend on the processing

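Over 21 results, 281 of 294 values under alternative settings kept the direction and the side of the threshold, or, for counts of genes, stayed within 1.5 times. These include 8 alternatives of the EGFR to ERBB2 ratio, which kept the direction but were entered as kept without a threshold. A prior count of 2 leaves every p-value as it is, so it could not move a member's call. The total is therefore a description only. Of the 13 values that changed, 10 came with library size only, where the median log₂FC of all genes moved to 0.52. There, 3 members were higher and 1 lower in place of 2 and 2, the log₂FC of ERBB2 was -0.04 (no longer past the threshold), and that of EREG was 0.38 (reversed). Also with library size only, 1 receptor inhibitor was lower in place of 2, 11 adaptor genes were higher and 5 lower in place of 7 and 8, 8 PI3K and AKT genes were higher and 2 lower in place of 3 and 5, and 43 genes of the KEGG pathway were higher and 14 lower in place of 23 and 28. Upper quartile scaling gave 5 PI3K and AKT genes higher. R's t.test function gave 1 receptor inhibitor and 3 PI3K and AKT genes lower, and on its log₂(CPM + 1) scale HBEGF was 3.27 and TGFA -3.84. With that function 4068 of all tested genes did not pass, against 2560 with the main test. Leaving out each library in turn changed no member's call, with log₂FC ranges of 1.53 to 1.62 for EGFR, -0.54 to -0.49 for ERBB2, 4.02 to 4.18 for HBEGF, -4.33 to -4.29 for TGFA and -0.24 to -0.03 for EREG, and 2.05 to 2.16 for the difference in the log₂ ratio of EGFR to ERBB2.

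Deviations of same-numbered libraries from their group means correlated at 0.30, -0.03 and -0.24 over 9030 genes. No pairing by replicate number was seen, but these correlations cannot show whether same-numbered libraries share an animal. With the replicate block, 2 members were higher and 2 lower, with log₂FC values of 1.58 for EGFR, -0.52 for ERBB2, 4.12 for HBEGF, -0.10 for EREG and -4.30 for TGFA, and 2596 of all genes did not pass, against 2560 without it. An exact sign-flip test on the EGFR to ERBB2 ratio gave p = 0.25, the smallest that 3 pairs allow. Depth limits ERBB3, AREG, BTC and EPGN, where a few counts decide any value.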
